A study of Caenorhabditis elegans with 3 samples.

Results

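Divergent promoters are the stretches of DNA between 2 protein-coding genes that start head to head and are read in opposite directions. The peaks described here are the autosomal rows of the pooled ChIP-seq peak list whose summit lay 1 to 1000 bp upstream of a plus-strand and also of a minus-strand protein-coding start, so that the starts were at most 2000 bp apart. This rule used positions only, and it gave 537 peaks, which is 5.48% of the 9803 autosomal peaks and part of 11533 peaks in all. The sequence that meets the rule is 1.67% of the autosomes. Of the 537 peaks, 97 were also in the authors' shorter thresholded list of 390 peaks, which holds the strongest rows of the pooled list, and these 97 carry most of the results.

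Chromatin immunoprecipitation followed by sequencing (ChIP-seq), which recovers the DNA bound by a protein, was done on whole Caenorhabditis elegans L4 larvae, the last larval stage, labelled as pooled male and female and of unknown age. All 3 samples are biological replicates of 1 group, the strain OP218 (unc-119(ed3) III; wgIs218), which carries a GFP-tagged copy of R02D3.7 (now rcat-1) on an unc-119 mutant background. There is no second condition, and whole animals mix all tissues. A note on replicate 3 places a GFP-FLAG tag at the C-terminus, and replicate 3 also differs from replicates 1 and 2 in its stock source and in naming sonication with a microtip.

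In nematodes as in other animals, many genes needed in every cell lie head to head with a neighbour and share the nucleosome-poor DNA between the starts. A transcription factor bound in such a gap is close to 2 promoters at once, and ChIP-seq alone does not tell which gene, if either, it acts on. R02D3.7 encodes a protein with a C2H2-type domain, a fold that in many proteins contacts DNA.

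The first sequence is the gap of the third strongest peak, printed whole because it shows both gene starts, the summit between them and the 8-letter word (8-mer) CGTAAATC, which was found at summits of these data in earlier work. All sequences are from the RefSeq genome of the build WBcel235, which is ce11, on the plus strand. Capitals mark the word, which reads GATTTACG where it lies on the minus strand. The minus-strand gene, hmgs-1, which encodes HMG-CoA synthase of the mevalonate pathway, starts just left of the first base. The plus-strand gene, F25B4.4, starts just right of the last. The gap spans 283 bp, with the word 100 bp from the F25B4.4 start.
hmgs-1/F25B4.4 (chrV:5684590-5684872): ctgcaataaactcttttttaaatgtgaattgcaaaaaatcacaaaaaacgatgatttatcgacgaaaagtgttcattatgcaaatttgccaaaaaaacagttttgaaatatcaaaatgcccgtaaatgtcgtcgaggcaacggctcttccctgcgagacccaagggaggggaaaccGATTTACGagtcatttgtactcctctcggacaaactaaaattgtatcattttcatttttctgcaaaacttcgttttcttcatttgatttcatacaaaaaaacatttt

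The next 6 sequences are summit windows, 50 bp to each side, of other strong peaks with the word on chromosomes III to V, shown because the words and their flanks can be compared. The dvc-1/ima-1 window is 98 bp long because its left side is cut at the dvc-1 start, which lies just left of the first base. The rbc-2/ndua-8 window holds the word on both strands. In the dvc-1/ima-1 and Y39B6A.3/pph-5 windows the word is followed, after 1 further base, by the letters acac. So is the minus-strand copy in the rbc-2/ndua-8 window, when read on its own strand.
rpl-20/Y17G9B.5 (chrIV:4750015-4750115): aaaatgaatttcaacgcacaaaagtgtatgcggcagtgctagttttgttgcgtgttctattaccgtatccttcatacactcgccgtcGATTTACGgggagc
rbc-2/ndua-8 (chrIII:2528763-2528863): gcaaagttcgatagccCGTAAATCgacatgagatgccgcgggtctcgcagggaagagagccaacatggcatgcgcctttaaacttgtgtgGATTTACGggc
R05D3.8/rfp-1 (chrIII:8358339-8358439): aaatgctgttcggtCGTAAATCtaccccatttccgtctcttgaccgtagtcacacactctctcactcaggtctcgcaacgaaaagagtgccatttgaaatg
dvc-1/ima-1 (chrV:11239332-11239429): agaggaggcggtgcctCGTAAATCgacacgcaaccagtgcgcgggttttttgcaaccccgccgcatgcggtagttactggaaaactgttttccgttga
ubq-2/frg-1 (chrIII:12978945-12979045): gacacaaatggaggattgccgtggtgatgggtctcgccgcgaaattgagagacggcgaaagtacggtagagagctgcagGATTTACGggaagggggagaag
Y39B6A.3/pph-5 (chrV:19190245-19190345): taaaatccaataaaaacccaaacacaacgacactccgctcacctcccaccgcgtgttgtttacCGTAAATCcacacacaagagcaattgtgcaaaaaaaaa

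For contrast, the last 3 windows are from strong peaks on chromosome IV with no exact copy of the word within 50 bp of the summit. Nothing is in capitals in them. The mrps-7/Y57G11C.3 window holds cgacac, the letters that often follow the word elsewhere, without the word itself.
rpl-15/K11H12.8 (chrIV:654878-654978): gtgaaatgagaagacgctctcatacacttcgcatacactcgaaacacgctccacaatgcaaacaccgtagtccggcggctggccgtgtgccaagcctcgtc
mrps-7/Y57G11C.3 (chrIV:14767851-14767951): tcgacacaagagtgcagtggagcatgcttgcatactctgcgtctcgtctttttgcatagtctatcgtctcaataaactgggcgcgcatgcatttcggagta
nap-1/praf-3 (chrIV:8379453-8379553): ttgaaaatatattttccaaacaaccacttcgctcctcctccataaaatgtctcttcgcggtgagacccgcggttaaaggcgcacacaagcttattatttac

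The strongest divergent promoter peak lay between rpl-20 (WBGene00004432), a gene of the large ribosomal subunit, and Y17G9B.5 (WBGene00021202), on chromosome IV from 4749728 to 4750377. Its signal, the strength that the authors' caller gave each peak, was 310, 154 and 337 in replicates 1, 2 and 3 and 808 in the pooled list, where it ranked 2 of all peaks. Signals are set by each list's own calling, so only the ranks are compared between lists, and this peak ranked 3, 4 and 1 in the replicates. The summit lay 287 bp upstream of rpl-20 and 175 bp upstream of Y17G9B.5.

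The second peak lay between rbc-2, a rabconnectin homolog of vesicle traffic, and ndua-8, a subunit of respiratory complex I, on chromosome III from 2528493 to 2529037. Its signal was 256, 115 and 218 in replicates 1, 2 and 3 and 594 in the pooled list, and it ranked 4, 6 and 4 in the replicates. The hmgs-1/F25B4.4 peak on chromosome V had signals of 199, 112 and 211 in the replicates and 519 in the pooled list, at ranks 7, 7 and 5. All of the 3 strongest peaks were thus among the first 7 of every replicate.

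The peak of ska-3, a kinetochore protein, and rps-12, a protein of the small ribosomal subunit, had a pooled signal of 423 and replicate ranks of 10, 20 and 8. It was followed by R05D3.8/rfp-1 at 408, where rfp-1 encodes a RING finger protein, and by rpl-15/K11H12.8 at 388, which has no copy of the word within 50 bp. The dvc-1/ima-1 peak, beside the gene for an importin alpha, had a pooled signal of 370. The ubq-2/frg-1 peak followed at 358, where ubq-2 encodes ubiquitin fused to a ribosomal protein. Y39B6A.3/pph-5, beside a serine/threonine protein phosphatase gene, had 304, and fars-1/rbm-5, beside a subunit of phenylalanyl-tRNA synthetase, had 299. Of the 10 strongest autosomal peaks of the pooled list, 5 were divergent promoter peaks.

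Ranks 11 to 25 among the divergent promoter peaks had pooled signals of 285 down to 173. They include mrps-7/Y57G11C.3, with a protein of the mitochondrial ribosome, at 273, and wapl-1/htz-1, with a cohesin release factor and the histone variant H2A.Z, at 256. The gap of cyn-4, a cyclophilin, and copz-1, a subunit of the COPI vesicle coat, had 233 and holds the word on both strands. The nap-1/praf-3 peak, with a nucleosome assembly protein, had 227. rps-0/rbg-3 had 223 and aps-3/rpl-17 had 222, where aps-3 encodes a subunit of the AP-3 adaptor. ahsa-1/C01G10.7, with an Hsp90 co-chaperone homolog, had 206, and Y53C12B.1/nos-3, with a Nanos-family RNA-binding protein of the germline, had 202. Below 200 came rpl-4/B0041.8 at 192, npp-9/F59A2.5, with a nuclear pore protein, at 190, rmh-2/suds-3 at 181, T15B7.15/hpo-8 at 178 and F55A11.1/syx-5, with a syntaxin, at 173. The others were F09E5.11/bmy-1 at 285 and abhd-11.2/nsph-1.2 at 267.

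Each of these 25 peaks had the summit of a strong peak of every replicate inside its interval, which is called support here. Strong peaks are the highest-ranked ones of a replicate, 5 times as many as the 390 of the thresholded list. The 25 were picked by their signal in the pooled list, which contains the reads of every replicate. Their support is therefore not independent and is a description only. The gaps of the 25 were 237 to 1041 bp wide, with a median of 460 bp. In 19 of the 25 the summit had the word no more than 50 bp away, and 18 summits lay between 25% and 75% of the way across the gap. The rank that varied most was that of Y53C12B.1/nos-3, at 51, 22 and 103 in replicates 1, 2 and 3.

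**Figure D1:**
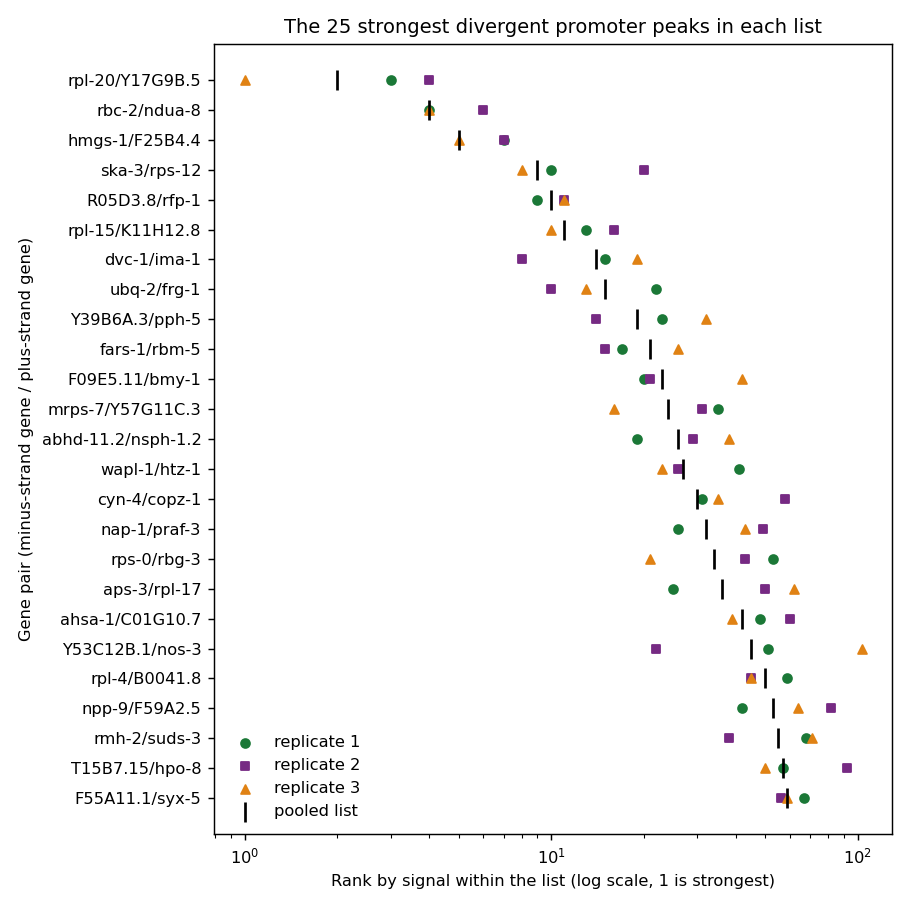
Rank by signal (log scale, 1 is the strongest) of the 25 strongest divergent promoter peaks in replicates 1, 2 and 3 and in the pooled list, with one row for each gene pair. All 25 stay within the first 103 peaks of every replicate. They were picked by signal in the pooled list, which contains the reads of every replicate.

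The share of divergent promoter peaks in the thresholded list was 97 of 537, or 18.1% (exact 95% Clopper-Pearson interval 14.9 to 21.6%). Of the autosomal peaks upstream of a start on 1 strand only, here called single promoter peaks, 138 of 2312 were in it, or 5.97% (5.04 to 7.01%). Of the other autosomal peaks 93 of 6954 were, or 1.34%, and over all autosomal peaks the share was 3.35%. The share of divergent promoter peaks was 3.03 times that of single promoter peaks. These intervals treat peaks as independent and cover counting error only, and the peaks of 1 pooled list are no replicates, so this comparison has no test. The classes may also differ in how often a summit lies inside a gene, which was counted for divergent promoter peaks only.

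Divergent promoter peaks made up 29.6% of the 328 autosomal thresholded peaks. They also stood higher within that list, with a median signal of 109 (quartiles 60.6 and 173), against 62.1 for the thresholded single promoter peaks and 43.2 for the other thresholded peaks. By pooled rank, they were 43 of the 83 autosomal peaks at ranks 1 to 100 (51.8%) and 31 of 81 at ranks 101 to 200 (38.3%). At ranks 201 to 390 they were 23 of 164 (14.0%), at ranks 391 to 1000 they were 67 of 526 (12.7%), and beyond rank 3000 they were 3.49%. Divergent promoter peaks outnumbered single promoter peaks at ranks 1 to 100, which held 32 of those, and were fewer than single promoter peaks in each later band.

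The replicates allow the same comparison in lists called separately. In replicates 1, 2 and 3, 28.2%, 26.0% and 24.2% of the divergent promoter peaks were among the strong peaks of the list, against 11.4%, 10.03% and 10.04% of the single promoter peaks. The means were 26.2 ± 2.00% and 10.5 ± 0.812% (SD, n = 3), and other autosomal peaks averaged 5.34 ± 0.260%. Over all autosomal peaks the shares were 7.29%, 7.1% and 6.79% in replicates 1, 2 and 3. The difference between divergent and single promoter peaks was 15.7 ± 1.32 percentage points and positive in 3 of 3 replicates (exact sign-flip permutation test, two-sided, p = 0.25, the smallest p that 3 replicates allow). The lowest divergent share, 24.2%, was above the highest single promoter share, 11.4%.

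Distance to a start differs between the classes, since a divergent promoter peak has 2 starts to be near to, so the shares were also set side by side at like distances. Among peaks with the nearest start at 1 to 100 bp, 18.4% of divergent and 6.62% of single promoter peaks were thresholded. At 101 to 200 bp the shares were 25.9% and 10.7%, which do not overlap in their intervals. At 201 to 300 bp they were 16.9% and 8.33%, at 301 to 500 bp they were 8.82% and 6.06% and at 501 to 1000 bp 4.76% and 3.08%, and in each of these 3 bins the intervals overlap. Among peaks within 300 bp of a start, a restriction added after the data were seen, the replicate difference in strong peaks was 15.98 ± 0.930 percentage points (29.9% of divergent against 13.9% of single promoter peaks, exact sign-flip permutation test p = 0.25).

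**Figure D2:**
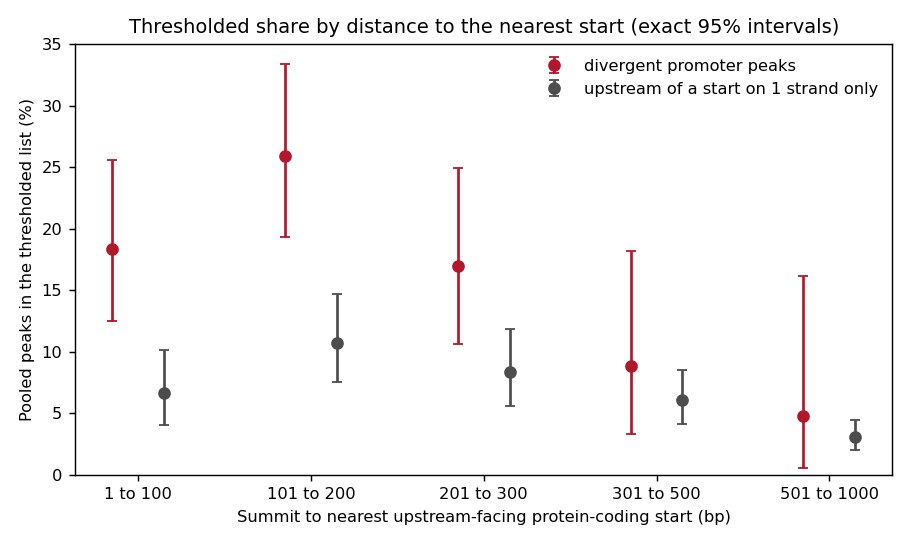
Share of pooled peaks that are in the thresholded list (%), by the distance from the summit to the nearest protein-coding start that it lies upstream of (bp), for divergent promoter peaks (red, left) and single promoter peaks (grey, right), with exact 95% intervals. The divergent share is 25.9% at 101 to 200 bp, against 10.7% for single promoter peaks, and the intervals overlap from 201 bp on.

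Members lay on every autosome, with 125, 88, 116, 104 and 104 of them on chromosomes I to V, of which 20, 19, 25, 16 and 17 were thresholded. The annotation holds 2382 autosomal head-to-head pairs with starts up to 2000 bp apart. Of these, 467 held any pooled peak and 96 a thresholded one (4.03%). Per chromosome the share of pairs with a thresholded peak was highest on III, at 6.49%, and lowest on V, at 2.56%. The gap of luc-7L3 and sftb-6 on chromosome II, with genes of splicing proteins, held 2 thresholded peaks whose intervals overlap, at pooled signals of 161 and 61.6, so the 97 peaks fall in 96 gaps.

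Counted per peak, gaps up to 500 bp had the larger shares. Of the divergent promoter peaks in gaps up to 250 bp, 12 of 43 were thresholded (27.9%), and in gaps of 251 to 500 bp 44 of 151 were (29.1%). In gaps of 501 to 1000 bp 34 of 234 were (14.5%) and in gaps of 1001 to 2000 bp 7 of 109 (6.42%). Counted per head-to-head pair, the shares with a thresholded peak were 3.28%, 8.40%, 4.32% and 0.976% in the same order of widths. Gaps up to 250 bp thus had no larger share per pair than gaps of 501 to 1000 bp. In the replicates, 38.7 ± 0.770% of the divergent promoter peaks in gaps up to 500 bp were among the strongest, against 20.8 ± 2.29% of those in wider gaps (SD, n = 3). That difference was 17.9 ± 1.73 percentage points and positive in 3 of 3 replicates (exact sign-flip permutation test, two-sided, p = 0.25). In a narrow gap a summit is also always near a start, and the part of that distance was not tested.

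The gaps around thresholded peaks had a median width of 471 bp (quartiles 343 and 638, range 81 to 1259), against 640.5 bp for the divergent promoter peaks that were not thresholded. The thresholded summits lay a median of 140 bp from the nearest start (quartiles 88 and 204) and 74 bp from the middle of the gap, against 188 bp and 101.75 bp for the rest. Of the thresholded summits 66 of 97 (68.0%) lay between 25% and 75% of the way across, against 282 of 440 (64.1%) of the rest, and these 2 shares lie close to each other. The closer start was that of the minus-strand gene in 53 and of the plus-strand gene in 44. Both starts were within 300 bp of the summit in 50 of 97 thresholded and 115 of 440 other peaks.

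The narrowest gap with a thresholded peak was the 81 bp between K07B1.7 and try-5, a gene of a trypsin-like protease known for its role in male sperm activation. Its signals were 76.9, 40.2 and 49.1 in replicates 1, 2 and 3 and 165 in the pooled list, at ranks 61, 65 and 74. Next were ears-2/uncp-18 with 91 bp, where ears-2 encodes a glutamyl-tRNA synthetase, algn-14/M02B7.2 with 154 bp, F54C4.4/mrpl-40 with 177 bp and pelo-1/R74.7 with 206 bp, where pelo-1 encodes the ribosome rescue factor Pelota. All 5 were supported by every replicate. Each of these peaks is wider than its gap, and the median width over all thresholded members was 343 bp.

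The widest gap was the 1259 bp between panl-2, of the poly(A)-shortening Pan2-Pan3 complex, and F31E3.12, with a pooled signal of 79.2. Y38E10A.22/Y38E10A.24 had 1224 bp and a signal of 40.2, pdi-3/ubql-1 1174 bp and 130, Y77E11A.7/jtr-1 1079 bp and 87.7, and icd-1/vps-32.1 1052 bp and 38.4. The pdi-3/ubql-1 peak, beside a protein disulfide isomerase gene, was the strongest of these and ranked 90, 148 and 88 in the replicates. The icd-1/vps-32.1 peak was uneven, at ranks 8594, 202 and 272.

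**Figure D3:**
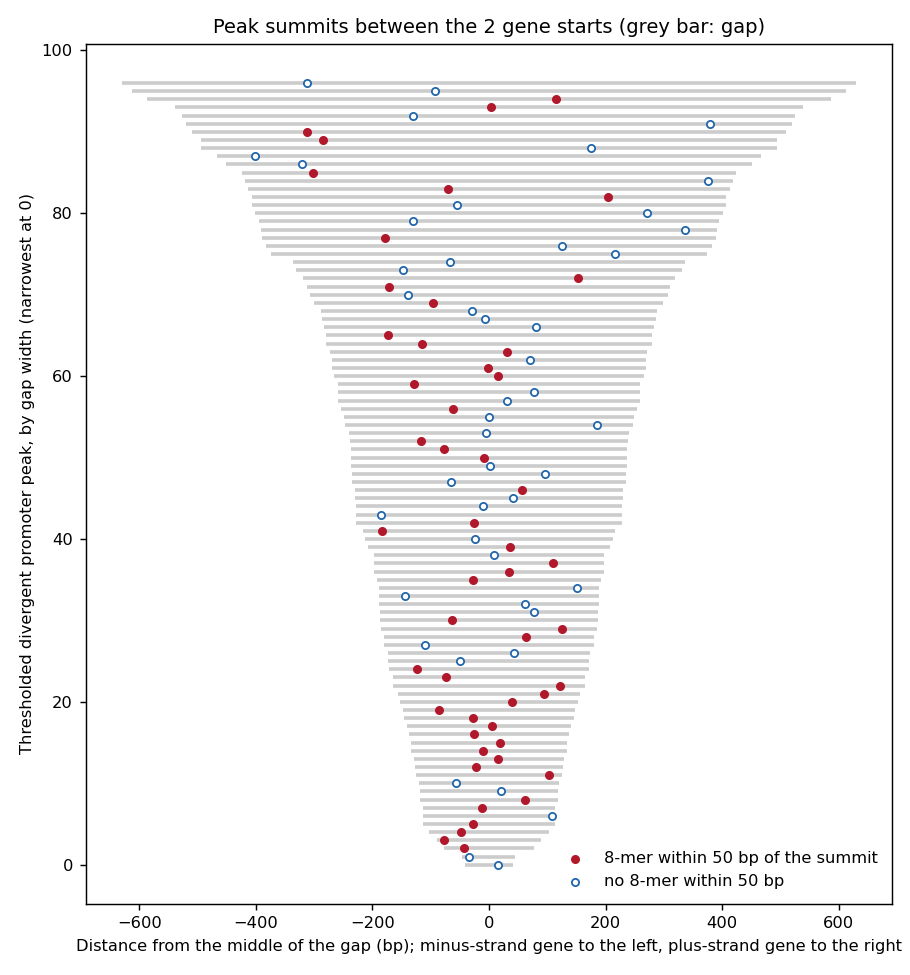
Position of the 97 thresholded summits in their gaps, with gaps sorted by width from narrowest (bottom) to widest (top) and the x axis giving the distance from the middle of the gap in bp. Grey bars span the bases between the minus-strand start (left end) and the plus-strand start (right end), filled red points have the word CGTAAATC within 50 bp of the summit and open blue points do not, and summits lie at a median of 74 bp from the middle.

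Of the 97 thresholded peaks 84 were supported by all 3 replicates and 13 by only 2 of them. Support is not given here for the other thresholded autosomal peaks, so this count cannot be set beside theirs. Replicates 1, 2 and 3 supported 95, 90 and 93. Of the 440 other members 9 were supported by all 3, 65 by 2, 148 by 1 and 218 by none. Among these 9, the gen-1/stt-3 peak at pooled rank 1257 overlaps a thresholded peak and shares its replicate summits, at ranks 108, 113 and 93. The aps-3/rpl-17 and coa-5/car-1 peaks among the 9 share those of an overlapping thresholded peak in replicates 1 and 3. The pooled list contains the reads of every replicate, so this support is not independent. The median rank of the thresholded peaks was 123, 125 and 117 in replicates 1, 2 and 3, against 2808, 5262.5 and 3885 for the other members, and the median shift of the summit between the pooled and the replicate list was 12, 18 and 14 bp.

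Some thresholded peaks had a low rank, or no summit inside their interval, in 1 replicate. The rps-27/picd-1 peak ranked 123, 6648 and 125, the ddx-15/ucr-1 peak, beside a gene of respiratory complex III, ranked 139, 5746 and 113, and the nduv-2/F53F4.12 peak ranked 234, 8374 and 156. In these 3 the low value was that of replicate 2. The ppm-1.H/rpl-34 and ifet-1/rps-1 intervals had no replicate 2 summit, and plc-4/R05G6.4 had no replicate 3 summit. In the ppm-1.H/rpl-34 gap an overlapping member at pooled rank 734, not thresholded, held a replicate 2 summit at rank 79. Replicate 2 thus had a strong peak in that gap, with its summit outside the thresholded interval. The eef-1A.1/rfc-4 peak, between genes of elongation factor 1 alpha and a clamp loader subunit, ranked 5195, 667 and 262, so its low value was in replicate 1. They are named because of these ranks, outside the rule for named peaks.

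The word CGTAAATC, counted on both strands within 50 bp of the summit, was present in 51 of the 97 thresholded peaks (52.6%, exact 95% interval 42.2 to 62.8%) and in 7 of the 440 other divergent promoter peaks (1.59%). Thresholded single promoter peaks held it in 64 of 138 (46.4%, 37.9 to 55.1%), an interval that overlaps that of the thresholded divergent promoter peaks. Single promoter peaks that were not thresholded held it in 42 of 2174 (1.93%), and other thresholded autosomal peaks in 29 of 93 (31.2%). All autosomal pooled peaks held it in 4.0%. It lay in 14 of 2286 equal windows at the middle of the gaps without a thresholded peak (0.612%), and in 133 of 17242 windows 100 to 200 bp upstream of an autosomal protein-coding gene (0.771%). Because the word was found at these summits, the shares are a description.

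In the replicates, 21.3%, 21.9% and 25.4% of the strongest divergent promoter peaks held the word, against 12.9%, 10.7% and 13.6% of the strongest single promoter peaks. The difference was 10.5 ± 1.85 percentage points and positive in 3 of 3 replicates (SD, n = 3; exact sign-flip permutation test, two-sided, p = 0.25). The strong peaks of the 2 classes were not matched for signal, and the part of signal in this difference was not tested. GC content of the 101 bp windows moved with the signal too, at a median of 44.6% in thresholded and 37.6% in other members, and its part in these shares was not tested.

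Within the thresholded peaks the word was found mostly at the stronger ones. It was present in 23 of the strongest 33 (69.7%), in 22 of the next 32 (68.8%) and in 6 of the weakest 32 (18.8%). The 51 peaks with the word had a median signal of 139 and a median gap of 395 bp, against 63.6 and 508 bp for the 46 without it. With 1 mismatch allowed, 63.9% of thresholded and 10.5% of other members held it, against 7.04% of the upstream windows of all genes. Its first 6 letters, CGTAAA, were in 60.8% of thresholded and 7.95% of other members and in 5.05% of upstream windows.

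The 51 peaks held 53 copies, all of them between the starts. A copy lay a median of 23.5 bp from the summit and 114 bp from the nearest start (quartiles 88 and 188, range 2 to 533). On the genome 21 copies were on the plus and 32 on the minus strand, and 24 pointed toward the nearest start while 29 pointed away. Counting from 1 at the first letter of the word, position 10 was A in 84.9% of the copies, position 11 was C in 86.8%, position 12 was A in 77.4% and position 13 was C in 66.0%, while position 9 was G in 49.1%. All 4 letters ACAC at positions 10 to 13 were present in 27 copies and at least 3 of them in 44, as in the dvc-1/ima-1 window printed above.

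The letters CGACAC, which overlap the word when they follow it, were found on either strand in 38 of the 97 thresholded windows (39.2%) and in 2.33% of upstream windows. They were in 25 of the 51 windows with the word (49.0%) and in 13 of the 46 without it (28.3%), among them mrps-7/Y57G11C.3. The word with its full tail lay in 27 of 97 thresholded windows (27.8%), in 0.455% of the other members and in 0.261% of upstream windows. Because these letters are the most frequent ones beside the copies at these same summits, the shares are a description. A match is only a match of letters, and a window without one may hold a variant of it.

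Head-to-head pairs can also be sorted by whether the gap holds the word. The word was found at summits of these same data, so these shares too are a description. Of the 138 autosomal pairs with the word anywhere in the gap, 58 held a thresholded peak (42.0%, exact 95% interval 33.7 to 50.7%), against 38 of 2244 pairs without it (1.69%). By width, the pairs with the word had 8 of 11 gaps up to 250 bp, 27 of 34 gaps of 251 to 500 bp (79.4%), 20 of 50 gaps of 501 to 1000 bp (40%) and 3 of 43 wider gaps (6.98%) with a thresholded peak. Without the word the largest share was 3.35%, in gaps of 251 to 500 bp. A wide gap also has summits more than 1000 bp from a start, which the rule leaves out, and more bases in which the word can occur.

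Over all widths, pairs with the full tail had a larger share. The letters of the tail are the most frequent ones at positions 10 to 13 of the copies at these same summits. These shares are therefore a description. With the word followed by its full tail, 30 of 51 pairs held a thresholded peak (58.8%), against 28 of 87 with the word and no full tail (32.2%). In gaps up to 250 bp the order was the other way, with 2 of 3 and 6 of 8. In gaps of 251 to 500 bp the counts were 14 of 15 and 13 of 19, and in gaps of 501 to 1000 bp 11 of 17 and 9 of 33. In gaps over 1000 bp they were 3 of 16 and 0 of 27.

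**Figure D4:**
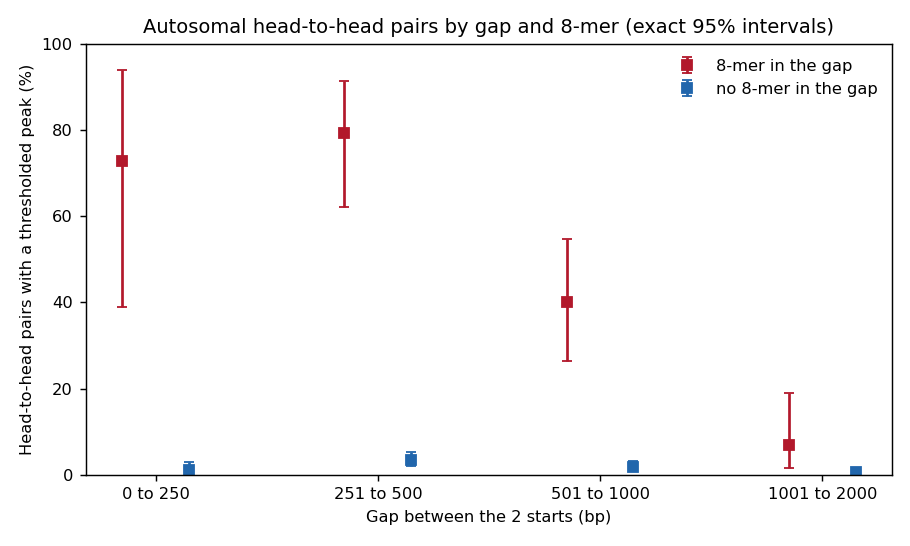
Share of autosomal head-to-head pairs with a thresholded peak between the starts (%), by gap width (bp), for pairs with the word CGTAAATC in the gap (red, left) and without it (blue, right), with exact 95% intervals. With the word the share is 79.4% at 251 to 500 bp and 6.98% beyond 1000 bp, and without it 3.35% is the highest share. The word was found at summits of these data.

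The genes on either side were counted in 18 lists, chosen by symbol with earlier results of these data known. Of 4724 symbols in autosomal head-to-head pairs, 192 had a thresholded peak in the gap (4.06%), beside which each list is read. Members share gaps, lists share a few genes, and a peak counts for both of its genes, so the counts are a description. Of the 96 pairs with a thresholded peak 13 had both genes on a list and 37 had 1, against 133 and 583 of all 2382 pairs.

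Proteins of the cytosolic ribosome, which makes all cellular proteins, had the largest share, with 17 of 50 paired genes (34%). They were rpl-20, rps-12, rpl-15 and ubq-2 at pooled signals of 808 to 358, then rps-0, rpl-17, rpl-4, rpl-28, rpl-2, rpl-34, rps-27, rpl-39, rps-30, rps-26, rps-20, rpl-9 and rps-1 down to 40.7. Of the list's 81 autosomal genes 50 (61.7%) were in a head-to-head pair, against 27.6% of all symbols. The gap of rpl-39 and rps-30 had ribosomal genes on both sides, with a signal of 58.4. The gap of rpl-28 and mrpl-49 joined genes of the cytosolic and the mitochondrial ribosome and had 52.1, 42.1 and 47.6 in the replicates and 136 in the pooled list.

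Mitochondrial ribosomal proteins had 5 of 27 paired genes (18.5%), led by mrps-7 at 273, mrpl-40 at 167, mrps-6 at 139 and mrpl-49 at 136. The respiratory chain and ATP synthase had 7 of 42 (16.7%), led by ndua-8 at 594, sdhb-1, the iron-sulfur subunit of complex II, at 121, cox-10, which acts in making haem for complex IV, at 112, and nuo-6 of complex I at 109. The remaining members of that list were ucr-1, nduc-2 and nduv-2. Mevalonate and ubiquinone synthesis had hmgs-1 alone of 5.

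Proteasome, ubiquitin and chaperonin genes had 8 of 58 (13.8%), led by dvc-1 at 370, ubq-2 at 358, rpn-12 at 143 and rpn-8 at 139, of which the last 2 encode proteasome lid subunits. dvc-1 is a homolog of a protease for DNA-protein crosslinks, and ubq-2 is also on the ribosomal list. The mrps-6/rpn-8 gap joined mitochondrial ribosome and proteasome genes and ranked 117, 73 and 57 in the replicates. The rad-23/rpn-12 gap, with a DNA repair and ubiquitin receptor gene, ranked 79, 46 and 126.

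Aminoacyl-tRNA synthetases had 2 of 15 (13.3%), fars-1 at 299 and ears-2 at 74.9, and translation factors 2 of 26 (7.69%), iff-2 at 65.5 and eef-1A.1 at 38.8. Splicing and RNA binding had 6 of 52 (11.5%), led by rbm-5 at 299, cyn-4 at 233, sftb-6 at 161 and rbd-1 at 149. cyn-4 and cyn-15 encode cyclophilins. Small RNA and germ granule genes had 5 of 39 (12.8%), led by nos-3 at 202, tofu-5 at 109, wago-4, an Argonaute, at 85.8 and puf-12 at 53.2. The tofu-5 gene shares its gap with nuo-6, a pair with signals of 51.6, 31.4 and 28.0 in replicates 1, 2 and 3.

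Vesicle traffic and membrane fusion had 6 of 58 (10.3%), led by rbc-2, copz-1, aps-3 and syx-5 at 594, 233, 222 and 173. DNA replication, repair and chromosome segregation had 5 of 71 (7.04%), led by ska-3 at 423, rad-23 at 143, rpa-1, of the single-stranded DNA binding complex, at 79.5 and top-2, a topoisomerase, at 60.1. No thresholded peak was in a gap of the 277 paired chemoreceptor, 43 nuclear hormone receptor, 40 collagen or 12 neuropeptide genes. None was at the 15 RNA polymerase and general transcription factor, 12 RNA exosome and decay, or 10 pyruvate dehydrogenase and citric acid cycle genes either. At a share of 4.06%, lists of 10 to 43 genes hold too few for a count of 0 to stand apart.

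**Figure D5:**
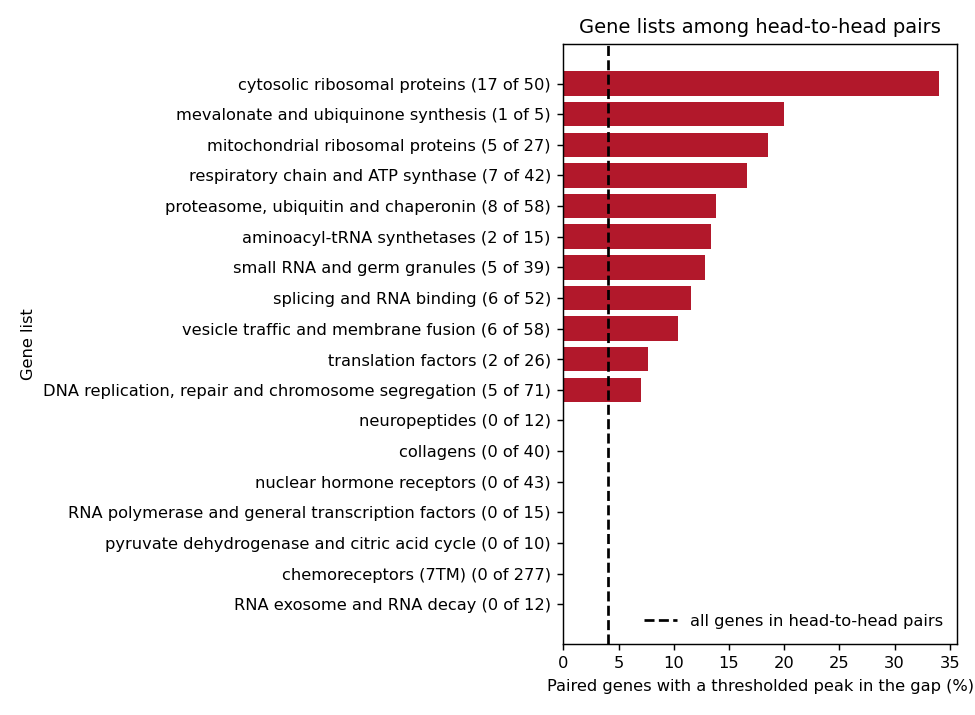
Share of the genes of each list that lie in autosomal head-to-head pairs and have a thresholded peak in the gap (%), with the counts beside each list and the share of all paired genes as a dashed line. Cytosolic ribosomal proteins reach 34%, against 4.06% of all paired genes. The lists were chosen with earlier results of these data known.

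The strongest divergent promoter peaks outside the thresholded list came right below its lowest signal of 36.2 for this class. They were rps-19/hsr-9 at 35.3, rps-10/rpl-24.1 at 35.0, spr-1/snap-1 at 35.0, kbp-3/nurf-1 at 34.6 and fib-1/mut-15 at 34.2. The first ranked 3894, 617 and 250 in replicates 1, 2 and 3, and spr-1/snap-1, with a CoREST homolog and alpha-SNAP, was not listed in replicate 2. Only kbp-3/nurf-1, with a kinetochore protein and a chromatin remodeler subunit, held the word, and it ranked 375, 1256 and 1177. The other 6 unthresholded members with the word had pooled signals of 10.5 to 33.0.

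At the limit of the rule, the members whose farther start was nearest to 1000 bp had it at 994 to 998 bp, and anmt-2/nfm-1 at 998 bp had a signal of 14.9. The peaks just outside had it at 1013 to 1038 bp, and spe-36/mig-38 at 1013 bp had a signal of 20.4. With the farther start at 800 to 1000 bp, 4 of 80 members were thresholded, and with it at 1000 to 1200 bp, just outside, 8 of 78 peaks were.

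Other annotation in the gaps was recorded for all members. A start of an RNA gene lay between the pair for 19 of 97 thresholded peaks (19.6%) and for 73 of 440 other members (16.6%), among them non-coding RNA genes in the gaps of F09E5.11/bmy-1, rps-0/rbg-3 and aps-3/rpl-17. The summit lay inside a protein-coding gene in 2 thresholded peaks, fars-1/rbm-5 being the stronger, and in 23 others. A further protein-coding start lay between the pair in 0 thresholded and 20 other peaks.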

How the data were processed

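The authors deposited peak lists in ce11. Per the labels' description files, each replicate's alignment was called with 1 control alignment, all 3 alignments were then called together, and the irreproducible discovery rate gave the thresholded list. No aligner, caller or cutoff is named there. The signal in the deposited lists is the strength from the authors' caller. Depth per sample is unknown, and the control was not analysed here.

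Gene starts came from Ensembl release 115 (gene ends, protein-coding) and letters from the RefSeq genome, both WBcel235. Positions are 1-based. Shares carry exact 95% Clopper-Pearson intervals, and differences between classes within a replicate were tested by an exact sign-flip permutation test, with scipy 1.17.1, numpy 2.4.6 and pandas 2.3.3. The classing of peaks and the word search were tried on simulated data, where 3000 of 3000 peaks were classed as by brute force and 200 of 200 planted words were found. The lists hold no second condition, so no groups were compared.

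The members, gene lists, word and tests were chosen with earlier results of these data known, and 2 list patterns were corrected after their matches were seen. Named are the 25 strongest thresholded members, the 4 strongest genes of each list, the 5 widest and narrowest gaps, the 5 strongest members not thresholded and those at the limit. Others were chosen after their values were seen. One sequence is not reported here.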

Additional observations from a re-analysis of the deposited data

How the results depend on the processing

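Of 42 alternative values of 8 results, 9 were marked as moved, and these were counts, shares or median distances. The differences between classes in strong peaks and in the word stayed positive in every setting. Some values marked as the same changed more in proportion than some marked as moved, so the values below include both kinds. With an upstream limit of 500 bp there were 317 divergent promoter peaks, of which 24.3% were thresholded, against 7.998% of single promoter peaks, and thresholded summits lay a median of 127 bp from the nearest start. In the stronger part of the thresholded list, at or above its median signal, the shares were 13.2% and 3.07% and the median distance 131 bp. Among peaks within 300 bp of a start, a setting added later, they were 20.8% and 8.62%. Within 25 bp of the summit, 26.8% of thresholded members held the word. With only the 500 strongest peaks of a replicate as strong, the difference between divergent and single promoter peaks was 9.97 points. Leaving out each replicate gave a difference in strong peaks of 15.1 to 16.4 points, a difference in the word of 9.77 to 11.5 points and support by both others for 86 to 91 peaks, a count that can only rise with 1 replicate fewer. Support by all 3 fell to 69 of 97 with the 390 strongest peaks of each replicate, and to 57 where intervals had to overlap by 50% of each. No paired analysis was possible because there is no second group of samples. The differences between classes of peaks were taken within each replicate. The counting error of the signal cannot be estimated without read counts, and 1 control served all replicates, so false peaks from it would be shared.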
